A study of Mus musculus with 7 samples.

Results

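The genes described are 63 protein-coding genes of the extracellular matrix in mouse kidney: all 44 collagen chain genes that the GENCODE symbol pattern for collagens selects, and 19 further genes tied to scarring, among them fibronectin, elastin, fibrillin, TGF-beta, the crosslinking oxidases, small proteoglycans and smooth muscle actin. They were taken by name from the 45706 genes in the deposited tables; the list was drawn up with earlier results of these data known. Of the 63 genes, 51 passed the filter on low counts and could be tested, 32 collagens and all 19 others. The samples were whole kidneys of male mice aged 6 months that lacked Slc7a9 (genotype Slc7a9-/-), the light subunit of the kidney's cystine carrier, a model of cystinuria in which cystine stones form. All 7 mice were knockouts, and normal kidney is not among the samples. One group of 4 mice drank water with the dietary thiol L-ergothioneine at 16 mg/kg/day, and the other 3 were untreated. The labels number the mice within a group but name no litter, cage or collection time, so the p-values measure the spread between these kidneys only.

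Libraries held 14843899 to 19791575 counts, and 15399 genes were tested. Of these, 7.16% passed the threshold (edgeR quasi-likelihood test, Benjamini-Hochberg adjusted p under 0.05), 3.58% as higher and 3.57% as lower in the ergothioneine kidneys. Untreated libraries 1 and 2 held less short non-coding RNA than the rest (12.2% and 16.2% of TPM, against 37.5% to 48.7% in the other 5), and TPM, a share of a fixed sum, leaves less for longer genes in those 5. On log2(TPM + 1) the median gene stood at -0.31 between the groups, while on counts it stood at -0.00. Differences below come from counts, given as CPM (each count over the TMM-scaled library size), and levels between genes from TPM after removal of short non-coding genes.

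Kidney matrix has a basement membrane part and an interstitial part. Collagen IV chains form the sheet under every tubule, vessel and glomerular tuft, with laminin, nidogen and the heparan sulfate proteoglycans woven into it. Fibrillar collagens I, III and V, collagen VI, fibronectin and the small leucine-rich proteoglycans fill the space between tubules, are made mainly by fibroblasts and pericytes, and accumulate when TGF-beta drives scarring. Elastin and fibrillin form elastic fibres, mostly in arteries, where smooth muscle actin is also found.

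Per length, biglycan and the basement membrane collagens led the matrix genes in these kidneys. Bgn, a small proteoglycan that binds collagen fibrils, had the highest level, at 120 ± 17.9 TPM untreated (SD, n = 3) and 120 ± 7.98 TPM with ergothioneine (SD, n = 4). Col4a3 followed at 65.4 ± 3.80 and 86.5 ± 5.75 TPM, then Col4a4 at 55.3 ± 4.81 and 67.5 ± 5.15 TPM. In the untreated group Col4a1 (51.2 ± 4.68 TPM), Col18a1 (49 ± 9.08) and Sparc (48.6 ± 6.27) came next and did not differ from each other beyond their spread. The classic scar collagens stood far lower, with 14.7 ± 2.88 TPM for Col1a2, 8.17 ± 2.31 for Col3a1 and 6.07 ± 3.00 for Col1a1 untreated. In the order of the 63 genes, Col27a1 was at place 7 untreated and place 14 with ergothioneine, and Acta2 at place 13 and place 9.

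**Figure D1:**
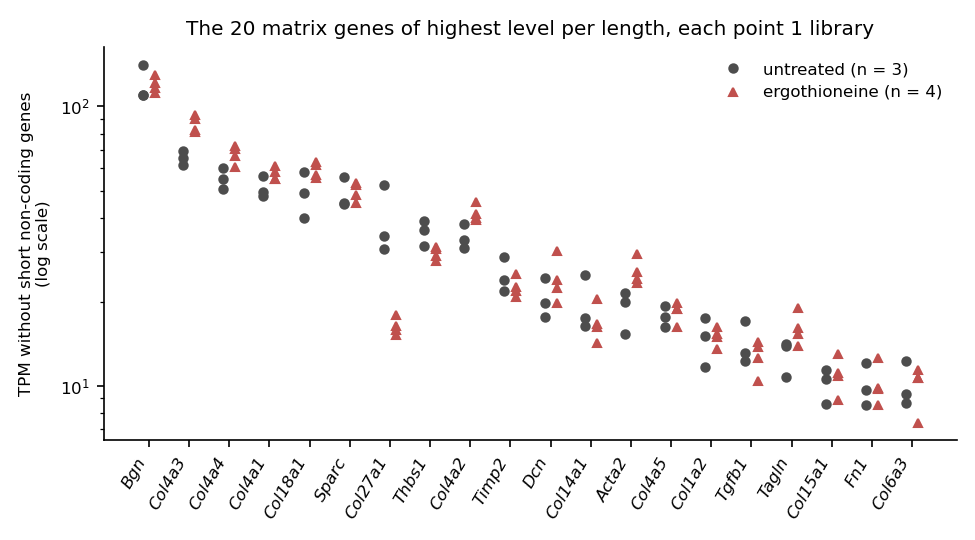
Level per length (TPM rescaled without short non-coding genes, log axis) of the 20 matrix genes with the highest untreated mean, each point 1 library, 3 untreated and 4 ergothioneine. Bgn lies highest in both groups, and Col27a1 shows the widest gap between the groups.

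Of the 51 tested matrix genes 8 rose and 3 fell with ergothioneine, and 40 did not pass. That is 21.6% of the tested members, beside 7.16% of all genes tested. The 8 that rose were 4 type IV collagen chains, Col18a1, Eln, Fbn1 and Acta2, and the 3 that fell were Col27a1, Col19a1 and Thbs1. The median log2 fold change of the 51 was 0.04, beside -0.00 for all genes. The groups did not overlap for 14 of the 51 (10 higher and 4 lower), beside 18.6% of all genes tested, 9.46% higher and 9.11% lower. Library index numbers fell into 2 ranges, 44 to 50 (2 untreated, 1 ergothioneine) and 14 to 23 (1 untreated, 3 ergothioneine). Within each range all 11 called genes kept their direction, which groups without overlap make certain, so this does not test an index effect. Of all 51 tested members, 36 had the direction of the whole set in both ranges. The 14 members without overlap had to be among them, and the share over all genes was not computed. This count therefore does not test an index effect either. Without untreated libraries 1 and 2 together, which leaves 1 library against 4, Col27a1, Col19a1 and Col4a3 passed and the other 8 did not; the lone untreated library is there assumed to vary like the treated ones.

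**Figure D2:**
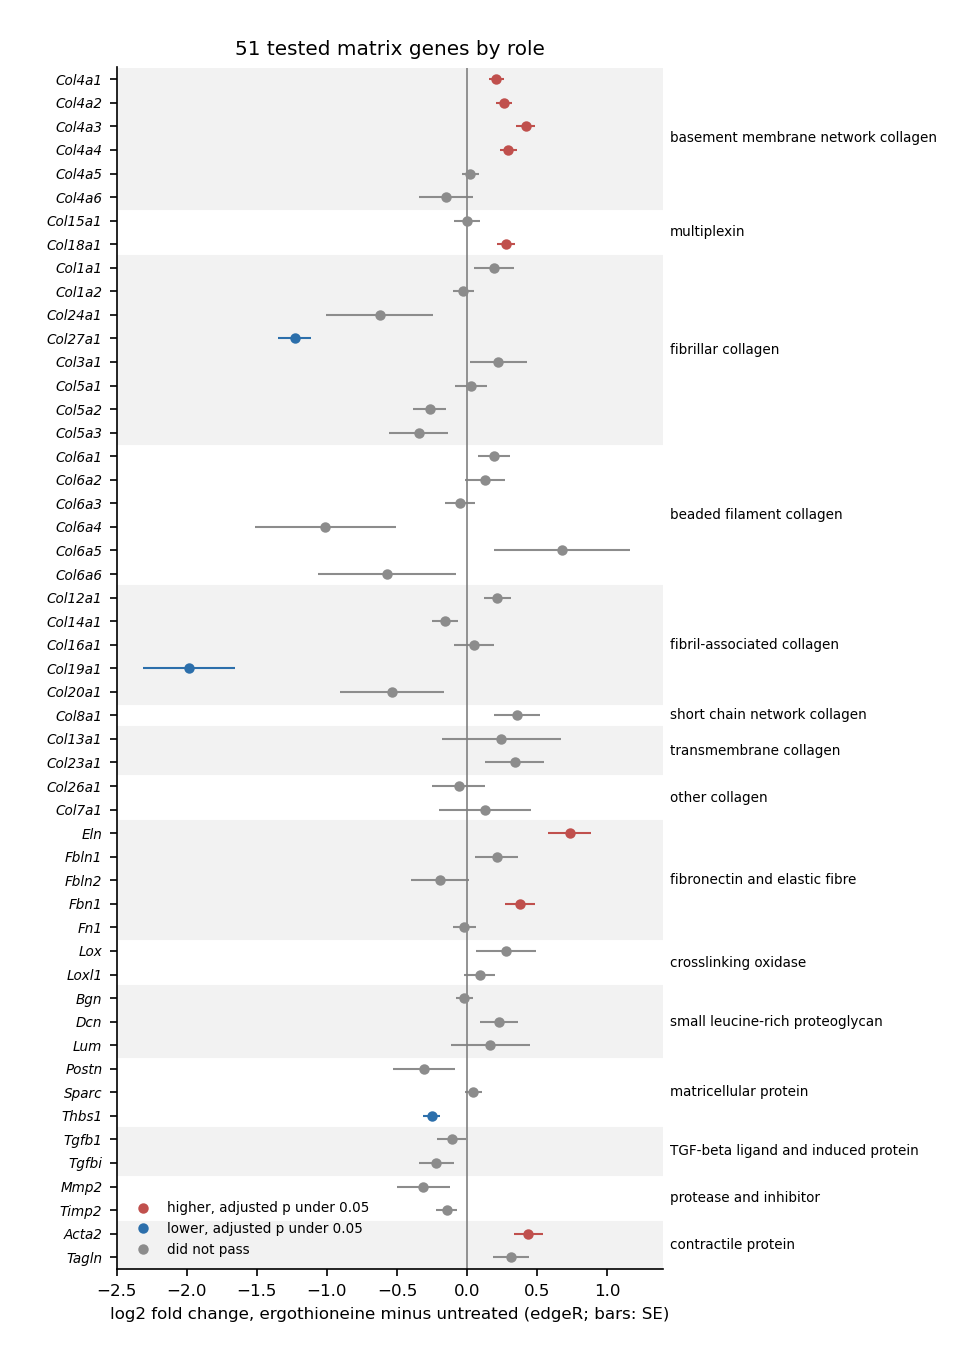
Log2 fold change, ergothioneine minus untreated, on counts (edgeR), with bars of 1 SE, for the 51 tested matrix genes grouped by role. The 8 genes in red passed as higher and the 3 in blue as lower; on log2(TPM + 1) Col4a1, Col4a2, Col4a4 and Col18a1 had the opposite sign, at -0.20, -0.092, -0.087 and -0.083.

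Type IV collagen is encoded by 6 genes that sit as 3 head-to-head pairs, each pair transcribed outward from neighbouring starts. Col4a1 and Col4a2 make the network found in all basement membranes. Col4a3, Col4a4 and Col4a5 make the network of the mature glomerular basement membrane, produced by podocytes, and of some tubules; mutations in these 3 genes cause Alport syndrome. In GENCODE (GRCm38) the first exons of Col4a1 and Col4a2 overlap by 22 bases on chromosome 8 (starts at 11312826 on the minus and 11312805 on the plus strand). The outermost starts of Col4a4 (82586849, minus strand) and Col4a3 (82586921, plus strand) on chromosome 1 leave 71 bases between them, and those of Col4a6 (141474076) and Col4a5 (141475385) on chromosome X leave 1308. The stretch between Col4a4 and Col4a3 is shown because both genes rose, and the stretches before Col4a5 and Col4a6 because that pair did not pass. They are the bases before each RefSeq start that lie in no GENCODE exon, 5′ to 3′ toward the gene named (RefSeq promoter windows, GRCm38.p6), with motif matches in capitals.
Col4a4, chr1:82586850-82586920, minus strand, reaching Col4a3 at its 5′ end: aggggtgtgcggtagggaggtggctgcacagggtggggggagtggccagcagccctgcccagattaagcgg
Col4a5, chrX:141475169-141475384, plus strand: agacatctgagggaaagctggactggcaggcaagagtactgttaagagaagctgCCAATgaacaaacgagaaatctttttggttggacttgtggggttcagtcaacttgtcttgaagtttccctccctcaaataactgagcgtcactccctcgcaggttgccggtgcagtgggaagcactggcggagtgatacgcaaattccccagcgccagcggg
Col4a6, chrX:141474077-141474326, minus strand: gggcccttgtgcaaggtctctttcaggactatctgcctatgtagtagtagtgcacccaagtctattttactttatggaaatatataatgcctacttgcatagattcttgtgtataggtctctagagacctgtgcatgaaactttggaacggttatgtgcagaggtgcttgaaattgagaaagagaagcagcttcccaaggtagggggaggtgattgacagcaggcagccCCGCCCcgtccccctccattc

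The motifs searched, on both strands, were the TATA box (TATAAA), the CCAAT box (CCAAT), the GC box (GGGCGG), the E-box (CACGTG) and the CArG box. None of the 5 was in the 71 bases between Col4a4 and Col4a3, nor elsewhere in the window of 300 bases around the Col4a4 start. The window of Col4a1 held 1 CCAAT box and 1 GC box, and that of Col4a2 1 CCAAT box and 3 GC boxes, partly the same bases, since the windows overlap. Over the 45 matrix genes with a window in the RefSeq table, 29 had a GC box, 15 a CCAAT box, 6 a TATA box, 1 an E-box and 1 a CArG box. A gene with more than 1 window counted if any of them held the motif, whereas the shares that follow are per window. Of all 32851 windows in that table, 35.7% held a GC box, 37.4% a CCAAT box, 13.6% a TATA box, 7.15% an E-box and 1.63% a CArG box.

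Col4a1 to Col4a4 rose with ergothioneine, whereas Col4a5 and Col4a6 did not pass. Col4a3 was at 356, 323 and 298 CPM untreated and at 441, 456, 405 and 441 CPM with ergothioneine (log2 fold change 0.42 ± 0.07 (SE), adjusted p = 0.000864). All 4 treated libraries lay above all 3 untreated ones, and library 3 was the lowest of each group. Its neighbour Col4a4 was at 340, 326 and 334 CPM untreated and at 422, 418, 375 and 420 CPM treated (0.30 ± 0.06, adjusted p = 0.00526). The groups were again apart, with ergothioneine library 3 standing below the other 3 treated ones.
Col4a1 was at 196, 200 and 196 CPM untreated and 228, 234, 222 and 230 CPM treated (0.21 ± 0.05, adjusted p = 0.0198). Col4a2 was at 135, 132 and 139 CPM untreated and 166, 169, 156 and 160 CPM treated (0.26 ± 0.05, adjusted p = 0.00647). For both genes the spread within a group was small and the groups did not overlap. On log2(TPM + 1) Col4a1, Col4a2 and Col4a4 had the opposite sign (-0.20, -0.092 and -0.087) and Col4a3 stood at 0.02, against a median gene at -0.31. With short non-coding genes taken out of the TPM all 4 were higher (0.17, 0.28, 0.29 and 0.40 for Col4a1, Col4a2, Col4a4 and Col4a3), and only Col4a3 passed (adjusted p = 0.0384). Col4a1 missed the threshold without untreated library 1 or 3 or ergothioneine library 1 or 2 (adjusted p = 0.0695, 0.0546, 0.0614 and 0.0708).

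The third chain of the glomerular network did not pass. Col4a5 was at 56.8, 54.5 and 56.8 CPM untreated and 53.8, 56.7, 57.3 and 59.9 CPM treated (log2 fold change 0.02 ± 0.06, adjusted p = 0.889), with overlapping groups. Col4a6, a chain of smooth muscle and some tubular basement membranes, was at 4.17 to 6.46 CPM untreated and 3.63 to 6.08 treated (-0.15 ± 0.20, adjusted p = 0.738). The ratio of Col4a3 to Col4a5 CPM was 6.26, 5.92 and 5.26 untreated and 8.21, 8.04, 7.06 and 7.36 with ergothioneine. The treated ratios lay above the untreated ones, for a ratio chosen after its values were seen and without a test of the difference between the chains. Per length, Col4a3 stood 3.40 to 3.94 times as high as Col4a5 untreated and 4.31 to 5.11 times treated.

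**Figure D3:**
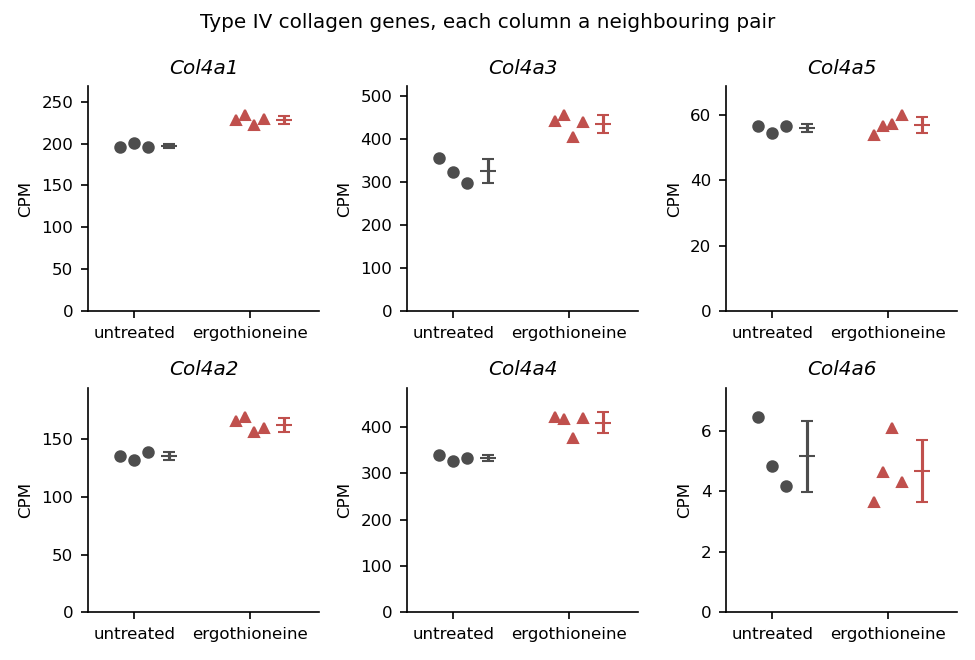
CPM of the 6 type IV collagen genes in each library, with the mean and SD of each group beside the points; each column of panels is a head-to-head pair. Col4a1 to Col4a4 show 2 separate groups on counts (Col4a1, Col4a2 and Col4a4 had the opposite sign on log2(TPM + 1)), whereas Col4a5 and Col4a6 overlap.

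Among the multiplexins, basement membrane collagens that carry heparan or chondroitin sulfate chains, Col18a1 rose and Col15a1 did not pass. Col18a1, the source of the fragment endostatin, was at 150, 132 and 160 CPM untreated and 180, 184, 169 and 183 CPM treated (log2 fold change 0.28 ± 0.07, adjusted p = 0.014). The lowest treated library lay above the highest untreated one. Its call was lost without untreated library 2 (adjusted p = 0.059) or ergothioneine library 2 (0.0518), and the fold change was -0.083 on log2(TPM + 1) and 0.29 on rescaled TPM. Col15a1, found beneath vessels and muscle, ranged from 24.0 to 28.8 CPM untreated and 23.3 to 29.5 treated (-0.00 ± 0.09, adjusted p = 0.998). Col18a1 has 2 RefSeq starts on chromosome 10, and the upstream one is shown because its window held 1 CCAAT box and 3 GC boxes, while the window of the other start held none of the motifs.
Col18a1, chr10:77166549-77166780, minus strand: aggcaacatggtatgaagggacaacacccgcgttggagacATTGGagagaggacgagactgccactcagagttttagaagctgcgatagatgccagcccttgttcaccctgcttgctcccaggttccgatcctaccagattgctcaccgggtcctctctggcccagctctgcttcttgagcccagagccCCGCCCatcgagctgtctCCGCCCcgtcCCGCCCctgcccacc

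Of 8 fibrillar collagens tested 1 fell, 0 rose and 7 did not pass (12.5% called, beside 7.16% of all genes), with 5 of 8 below 0 and a median log2 fold change of -0.15. The gene that fell was Col27a1, a fibrillar collagen known from cartilage, which in these untreated kidneys stood above every other fibrillar chain per length (39.2 ± 11.6 TPM). Col27a1 was at 117, 117 and 161 CPM untreated and at 58.4, 58.4, 56.6 and 50.4 CPM with ergothioneine (log2 fold change -1.23 ± 0.12, edgeR adjusted p = 0.00039). The 4 treated libraries lay close together, and each was below every untreated library, of which library 3 was the highest. The call remained under all 19 alternatives tried, among them all 3 fits on TPM. No other annotated gene shares exon bases with Col27a1 (chromosome 4, 63214004 to 63334991, plus strand). The 250 bases before its RefSeq start at 63215412, which hold 1 GC box, are shown because the gene fell in every fit; they lie inside the GENCODE gene, downstream of its outermost start.
Col27a1, chr4:63215162-63215411, plus strand: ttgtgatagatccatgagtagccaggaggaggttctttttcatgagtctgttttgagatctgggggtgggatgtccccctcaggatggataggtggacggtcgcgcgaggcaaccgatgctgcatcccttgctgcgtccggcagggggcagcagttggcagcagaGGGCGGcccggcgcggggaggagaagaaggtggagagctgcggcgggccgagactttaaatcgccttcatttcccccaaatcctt

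The collagens that make up interstitial scar did not pass. Col1a1, which encodes the main chain of collagen I, was at 12.7, 21.4 and 19.6 CPM untreated and 19.7, 20.2, 21.4 and 20.2 CPM treated (log2 fold change 0.19 ± 0.14, adjusted p = 0.506). The groups overlapped, with the treated values close together and the untreated ones spread. Its partner Col1a2 was at 37.5, 45.3 and 41.7 CPM untreated and 38.4, 44.2, 38.9 and 41.3 CPM treated (-0.03 ± 0.08, adjusted p = 0.9). Col3a1 was at 17.0, 27.0 and 24.2 CPM untreated and 20.3, 24.8, 31.2 and 29.5 CPM treated (0.22 ± 0.20, adjusted p = 0.626). For both genes the groups overlapped, and untreated library 1 was the lowest of the 7 for Col1a1, Col1a2 and Col3a1. Col5a1 stood at 0.03 ± 0.12, Col5a2 at -0.27 ± 0.12 and Col5a3 at -0.34 ± 0.21 (adjusted p = 0.927, 0.196 and 0.39); these chains of collagen V start and size collagen I fibrils. Col5a2 passed as lower only without untreated library 3 (-0.40, adjusted p = 0.0358). Col24a1, at no more than 16 counts, stood at -0.62 ± 0.38 (adjusted p = 0.389).

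Collagen VI forms beaded filaments around cells, and 0 of its 6 genes passed, beside 7.16% of all genes tested. By the edgeR test none of these 6 had an unadjusted p under 0.05 either, beside 3201 of all 15399 genes tested. Col6a1 was at 12, 15.7 and 13.2 CPM untreated and 16.0, 16.5, 13.5 and 16.0 CPM treated (log2 fold change 0.19 ± 0.11, adjusted p = 0.363), with overlapping groups. Col6a2 and Col6a3 stood at 0.13 ± 0.14 and -0.05 ± 0.11. The low chains Col6a4, Col6a5 and Col6a6 had wide errors (-1.01 ± 0.50, 0.68 ± 0.49 and -0.57 ± 0.50). Col6a6 was at 2.76 to 3.57 CPM untreated and 1.53, 1.32, 4.62 and 1.09 CPM treated, so that ergothioneine library 3 stood above every untreated library and the other 3 treated libraries below. Without that library Col6a6 passed as lower (-1.26, adjusted p = 0.00642).

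Fibril-associated collagens decorate the surface of larger fibrils, and of 5 tested 1 fell and 0 rose (20%, beside 7.16% of all genes tested). Col19a1 (chromosome 1, 24261890 to 24587472, minus strand), a low-abundance chain known from muscle and neurons, was covered by 73, 37 and 70 counts untreated and by 6, 18, 20 and 24 with ergothioneine. This equalled 4.14, 2.48 and 4.49 CPM against 0.34, 0.91, 1.17 and 1.31 CPM (log2 fold change -1.98 ± 0.33, adjusted p = 0.00155). It was the largest fold change among the 51 tested genes, at low counts, and ergothioneine library 1 was the lowest. The call remained in all 7 fits that each left out 1 library, and was lost on rescaled TPM (-0.71, adjusted p = 0.0511). Col12a1 and Col14a1, the abundant members of this class in kidney, stood at 0.22 ± 0.09 and -0.16 ± 0.10 (adjusted p = 0.194 and 0.39). Col12a1 was at 14.8 to 18.0 CPM untreated and 18.3 to 20.3 treated, so its groups did not overlap although the test was not passed. Col16a1 and Col20a1 stood at 0.05 ± 0.14 and -0.53 ± 0.37.

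The remaining tested collagens were low and did not pass. Col8a1, a short chain network collagen of vessel walls, was at 4.04 to 6.83 CPM untreated and 6.92 to 8.10 treated (log2 fold change 0.36 ± 0.17, adjusted p = 0.226). Its groups did not overlap, and it passed only against untreated library 3 alone (0.88, adjusted p = 0.0362), a fit whose spread comes from the treated libraries. The transmembrane collagens Col13a1 and Col23a1 stood at 0.25 ± 0.43 and 0.34 ± 0.21, Col7a1 of anchoring fibrils at 0.13 ± 0.33 and Col26a1 at -0.06 ± 0.19. The 12 collagens left out of the test had at most 11 counts in any library. They were the cartilage-type chains Col2a1, Col9a1, Col9a2, Col9a3, Col10a1, Col11a1 and Col11a2, with Col8a2, Col17a1, Col22a1, Col25a1 and Col28a1. Col9a1 and Col9a2 had 0 counts in all 7 libraries, which allows up to 3 counts in each.

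Of 5 genes of fibronectin and the elastic fibre 2 rose (40%, beside 7.16% of all genes tested), both from the fibre. Eln, which encodes the elastic core, was at 4.31, 6.77 and 6.22 CPM untreated and 9.71, 10.0, 8.53 and 9.81 CPM treated (log2 fold change 0.73 ± 0.15, adjusted p = 0.00601). The 4 treated libraries lay above the 3 untreated ones, and the call remained without any single library. Fbn1, which encodes the microfibril scaffold around elastin, was at 17.7, 22.4 and 21.9 CPM untreated and 28.3, 26.2, 22.7 and 30.2 CPM treated (0.38 ± 0.11, adjusted p = 0.0403). Its groups were only just apart, by ergothioneine library 3. This call was lost in 12 of the 19 alternatives, among them the fits without untreated library 1 or 3 or ergothioneine library 1, 2 or 4 (adjusted p = 0.175, 0.0623, 0.115, 0.0835 and 0.0995), limma-voom (0.0663) and the index range as a block (0.0849). On the opposite strand Gm9913 covers 2442 of the 12128 exon bases of Fbn1 and had at most 3 counts.
Fn1, fibronectin, an early scaffold of scar tissue, was at 38.9, 41.2 and 45.2 CPM untreated and 36.7, 40.7, 40.2 and 47.3 CPM treated (-0.02 ± 0.08, adjusted p = 0.94), with the treated values on both sides of the untreated ones. The fibulins Fbln1 and Fbln2, which link fibres to basement membranes, stood at 0.21 ± 0.15 and -0.19 ± 0.20. The crosslinking oxidases Lox and Loxl1, which join collagen and elastin chains, stood at 0.28 ± 0.22 and 0.09 ± 0.11 (adjusted p = 0.522 and 0.71).

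Of the small leucine-rich proteoglycans 0 of 3 passed, beside 7.16% of all genes tested. Dcn, decorin, which binds collagen fibrils and TGF-beta, was at 18.2, 21.4 and 22.7 CPM untreated and 23.7, 23.2, 30.8 and 19.6 CPM treated (log2 fold change 0.23 ± 0.14, adjusted p = 0.391), with ergothioneine library 4 inside the untreated range. Bgn and Lum stood at -0.02 ± 0.06 and 0.17 ± 0.28 (adjusted p = 0.908 and 0.811).
Of 3 matricellular genes, whose products tune cell and matrix contacts, 1 fell (33.3%, beside 7.16% of all genes tested). Thbs1 (chromosome 2, 118111876 to 118127133), thrombospondin 1, an activator of latent TGF-beta, was at 132, 119 and 127 CPM untreated and 109, 106, 111 and 96.5 CPM treated (-0.25 ± 0.06, adjusted p = 0.0176). Every treated library was below every untreated one, by a small margin. The call was lost without untreated library 1 (adjusted p = 0.0923), ergothioneine library 2 (0.052) or ergothioneine library 4 (0.0508). Sparc, which binds collagen and basement membrane, was at 56.3, 57.6 and 61.3 CPM untreated and 57.7, 62.5, 59.6 and 61.0 CPM treated (0.04 ± 0.06, adjusted p = 0.751). Postn, periostin, a marker of kidney injury, stood at -0.31 ± 0.22 (adjusted p = 0.483).

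The TGF-beta ligand gene did not pass. Tgfb1, the main profibrotic ligand, was at 16.4, 15.1 and 16.4 CPM untreated and 12.8, 14.7, 16.9 and 14.8 CPM treated (log2 fold change -0.11 ± 0.10, adjusted p = 0.621), and the treated libraries surrounded the untreated ones. Tgfbi, named for its induction by TGF-beta, stood at -0.22 ± 0.13 (adjusted p = 0.355). Mmp2, a gelatinase that cuts basement membrane collagen, was at 3.48 to 3.72 CPM untreated and 2.34 to 3.41 CPM treated (-0.31 ± 0.19, adjusted p = 0.384), groups that did not overlap and did not pass. Its inhibitor Timp2 stood at -0.14 ± 0.08 (adjusted p = 0.302).

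Of the contractile genes, Acta2 rose and Tagln did not pass. Acta2, the actin of vascular smooth muscle and of myofibroblasts, was at 15.1, 20.3 and 19 CPM untreated and 23.4, 27.4, 24.7 and 22.5 CPM treated (log2 fold change 0.44 ± 0.11, adjusted p = 0.0163). All treated libraries were higher than all untreated ones, of which library 1 was the lowest. Its call was lost without untreated library 1 (0.32, adjusted p = 0.0925) or ergothioneine library 2 (adjusted p = 0.0671) and with the index range as a block (0.0542). Tagln, an actin-binding protein of the same cells, was at 9.18, 12.3 and 10.8 CPM untreated and 12.1, 13.0, 16.0 and 12.4 CPM treated (0.31 ± 0.13, adjusted p = 0.163).

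**Figure D4:**
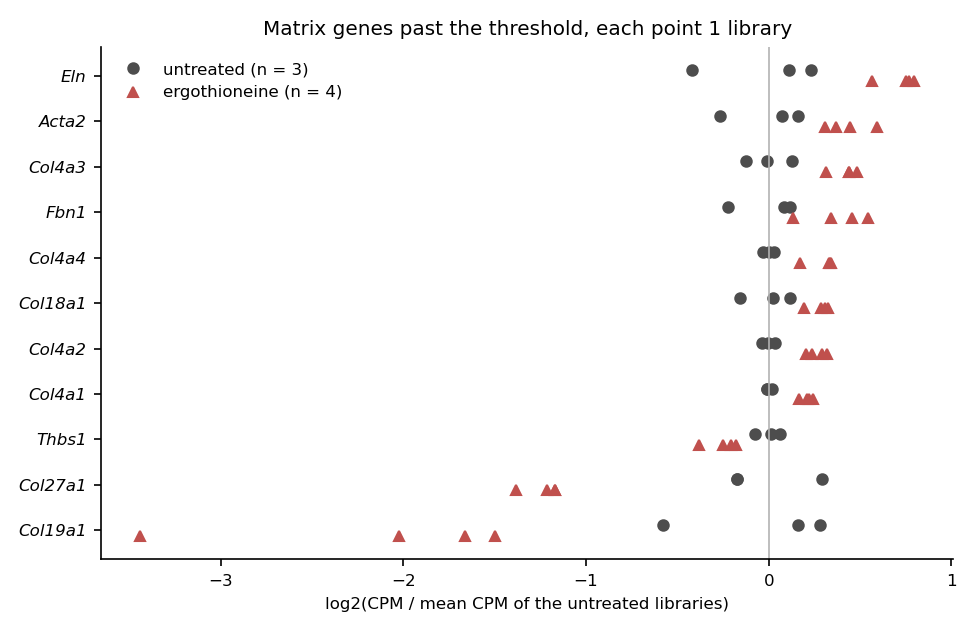
Log2 of CPM over the untreated mean in each library for the 11 matrix genes past the threshold on counts, 3 untreated and 4 ergothioneine points a gene. The groups are apart for every gene shown, by the smallest margin for Fbn1; on log2(TPM + 1) Col4a1, Col4a2, Col4a4 and Col18a1 had the opposite sign.

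Other genes of these pathways were read from 4 lists with 122 tested genes, of which 6 rose and 4 fell (8.20%, beside 7.16% of all genes tested). In collagen biosynthesis 3 of 29 rose and 2 fell (17.2% called). Pcolce, which speeds removal of the procollagen C-terminal end, rose from a mean of 48.9 to 68 CPM (log2 fold change 0.48 ± 0.06, adjusted p = 0.000103), and the lysyl oxidase relative Loxl4 from 2.29 to 5.19 CPM (1.19 ± 0.23, adjusted p = 0.00388). P3h2, a prolyl 3-hydroxylase that acts on collagen IV, fell from 188 to 136 CPM (-0.46 ± 0.08, adjusted p = 0.0037). The other 2 calls of this list were lost without most single libraries: Serpinh1, the collagen chaperone HSP47 (-0.39, adjusted p up to 0.122 in 6 of 7 such fits), and Creb3l1 (0.74, up to 0.16 in 5 of 7). Genes for the main prolyl and lysyl hydroxylases did not pass, such as P4hb at 0.08 ± 0.06 and Plod2 at 0.31 ± 0.12.

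In the TGF-beta pathway list 0 of 31 rose and 1 fell (3.23%, beside 7.16% of all genes tested), with a median of -0.07. The gene that fell was Smad7, an inhibitor that TGF-beta signalling itself induces (69.1 to 49.1 mean CPM, log2 fold change -0.49 ± 0.08, adjusted p = 0.00109). Its groups did not overlap, and the call remained in all 7 fits that each left out 1 library. The TGF-beta target Ccn2 stood at -0.09 ± 0.24 (adjusted p = 0.898) and the transducers Smad2, Smad3 and Smad4 at -0.04 to 0.05; these and the other genes of the lists that did not pass were named after their values were seen. In matrix turnover 1 of 21 rose (4.76%, beside 7.16% of all genes tested). This was Mmp15, a membrane-bound metalloproteinase (0.65 ± 0.17, adjusted p = 0.0249), which lost its call in 4 of 7 fits without 1 library (up to 0.0922).

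In the list of other matrix glycoproteins and proteoglycans 2 of 41 rose and 1 fell (7.32%, beside 7.16% of all genes tested). Npnt, nephronectin, a basement membrane ligand of integrin alpha 8 beta 1, rose from a mean of 122 to 184 CPM (log2 fold change 0.59 ± 0.06, adjusted p = 1.52e-05). Nid2, one of the nidogens that tie collagen IV to laminin, rose from 31.6 to 40.1 CPM (0.34 ± 0.08, adjusted p = 0.00951; -0.021 on log2(TPM + 1) and 0.33 on rescaled TPM). Among the 38 genes of this list that did not pass, Nid1 stood at 0.07 ± 0.07, the perlecan gene Hspg2 at 0.04 ± 0.09, Agrn at -0.01 ± 0.06 and Fras1 at -0.01 ± 0.06. Matn2 at 0.32 ± 0.11 (adjusted p = 0.0916, groups apart), Smoc2 at 0.30 ± 0.14 and Egfl6 at 0.17 ± 0.14 did not pass either. Tnxb, a tenascin of connective tissue, fell from 40.7 to 31.7 CPM (-0.36 ± 0.10, adjusted p = 0.0409) and lost its call in 4 of 7 fits without 1 library (up to 0.161).

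Summed over all 63 genes, the matrix transcripts made up 2187 to 2298 CPM untreated and 2353 to 2488 CPM with ergothioneine. Col4a1 to Col4a4 alone summed to 967 to 1027 CPM untreated and 1158 to 1277 CPM treated, or 42.1% to 47.0% and 49.2% to 52.0% of the matrix sum. The other 59 genes summed to 1160 to 1331 CPM and 1160 to 1210 CPM. The 8 interstitial genes Col1a1, Col1a2, Col3a1, Col5a1, Col5a2, Col6a1, Col6a2 and Col6a3 summed to 150 to 203 CPM untreated and 169 to 189 CPM treated. Of these 4 sums, those of Col4a1 to Col4a4 and of all 63 genes were apart between the groups on counts. The first holds only chains that were each apart, so their sum had to be apart. The second includes these chains, and without them the groups overlapped.

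In whole kidney, a change in the number of cells of a type and a change in RNA per cell cannot be told apart. Markers of fibroblasts and pericytes summed to 271 to 311 CPM untreated and 274 to 288 CPM treated, with 0 of 10 tested markers called and 1 at an unadjusted p under 0.05 (edgeR). Smooth muscle markers other than Acta2 and Tagln summed to 391 to 433 and 390 to 420 CPM, with 0 of 9 called and 1 at an unadjusted p under 0.05. Over all 15399 genes tested, 7.16% were called and 3201 had an unadjusted p under 0.05 by the same test. Podocyte markers summed to 622 to 683 CPM untreated and 659 to 729 CPM treated, with overlapping groups. Of 10 tested 1 rose (10%, beside 7.16% of all genes tested), and 2 had an unadjusted p under 0.05 (edgeR). Markers of the distal nephron summed to 5232 to 5569 CPM untreated and 5804 to 6600 CPM treated, without overlap. They went in the same direction as Col4a1 to Col4a4, and 3 of 10 rose (30%, beside 7.16% of all genes tested). The part of podocytes or the distal nephron in the rise of Col4a1 to Col4a4 was not tested.
Adipocyte markers fell beside Col27a1 and Col19a1. Of 8 tested 7 were lower with ergothioneine and 0 higher, beside 3.57% lower and 3.58% higher of all genes tested. The list of 10 summed to 57.5 to 67.5 CPM untreated and 13.4 to 22.8 CPM treated. Ucp1, the uncoupling protein of brown fat, was at a mean of 20.9 CPM untreated and 0.835 treated (log2 fold change -4.65, adjusted p = 0.0103), and Cidea at 2.88 and 0.104 CPM (-4.63). Fabp4, the most abundant of the list, was at 22.5 and 14.1 CPM, Adipoq at 1.85 and 0.25 and Plin1 at 3.92 and 0.41. None of the 10 was at 0 in every library, and the part of fat in the falls was not tested. Markers of endothelium (0 of 12 called) and of mesothelium and urothelium (0 of 9) did not pass. Of leukocyte markers 1 of 9 was lower (11.1%), and of proximal tubule markers 1 of 10 (10%), beside 7.16% of all genes tested. All 4 sums overlapped between the groups. Proximal tubule markers summed to 27087 to 30641 CPM over all libraries.

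**Figure D5:**
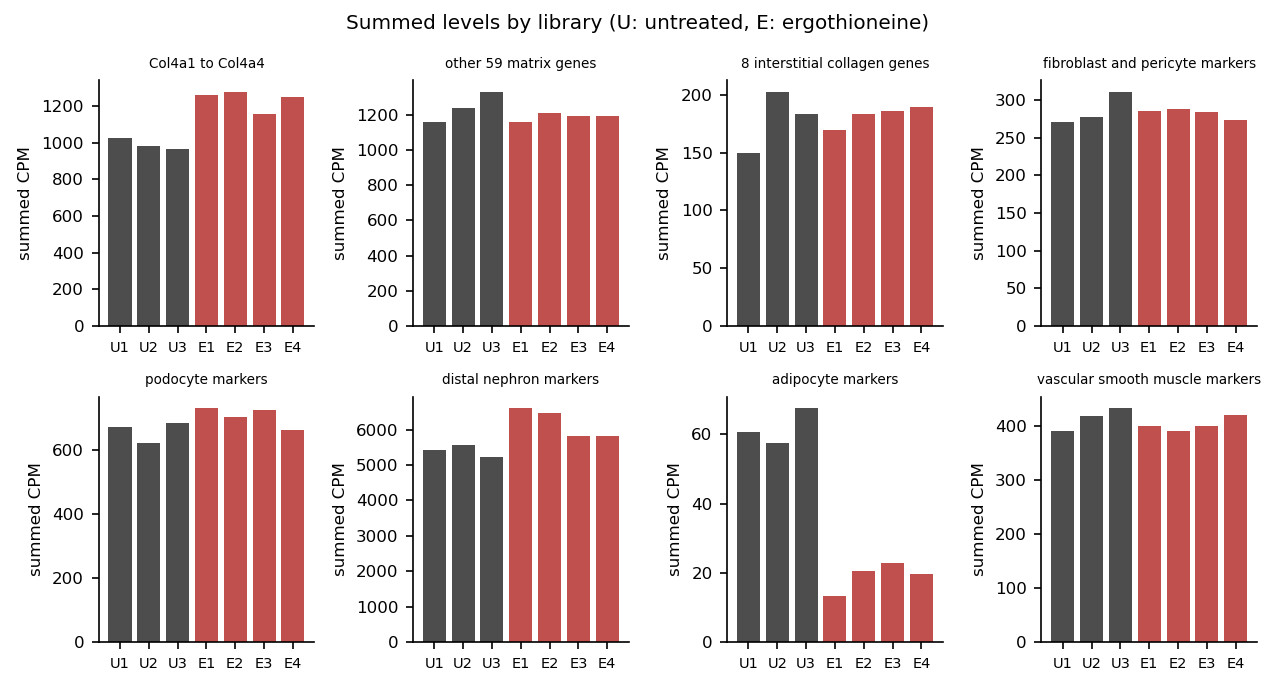
Summed CPM by library (U1 to U3 untreated, E1 to E4 ergothioneine), each axis from 0. Panels show Col4a1 to Col4a4, the other matrix genes, interstitial collagen genes and marker lists of 5 cell types. On counts, Col4a1 to Col4a4 and distal nephron sums are higher and adipocyte sums lower in every treated library. The other 5 sums overlap between the groups.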

How the data were processed

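The authors deposited expected counts (3.61% of values not whole) and TPM values per Ensembl gene and mouse. TPM by the authors is divided by length and scaled to a fixed sum. Per the submitters' processing notes, tools included STAR 2.7.10a, RSEM 1.3.1 and Salmon 1.10.1 on GRCm38. The role of each tool, the annotation and the strand setting were not given in the sources used here, so sense and antisense reads may be mixed. Per the labels' protocols, kits for ribosomal RNA removal and stranded mRNA libraries were used.

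Expected counts were rounded. The test was edgeR 4.0.16 (R 4.3.3; genes kept by filterByExpr, TMM scaling, robust quasi-likelihood F test, Benjamini-Hochberg over 15399 genes, threshold 0.05; tested on simulated data). SE is the log2 fold change over the square root of F; its median was 0.107 over all tested genes. Symbols came from GENCODE M21, which held 45143 of the 45706 identifiers. TPM was also rescaled without non-coding genes with a median transcript under 400 nt. Alternatives were DESeq2 1.42.0, limma 3.58.1 (voom; trend on log2(TPM + 1) and log2(TPM + 0.1)), other scalings and filters, blocks, and libraries left out. Libraries of a group differed by 7.99 to 27.2 times sampling noise (chi-square per degree of freedom), so none was a copy.

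The members and lists were chosen with earlier results of these data known. Values in every library are given for members past the threshold and 11 fixed members; in the 4 further lists, genes past the threshold are named, up to 8 a list. Single values of some list genes are not reported here.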

Additional observations from a re-analysis of the deposited data

Results flagged for a closer look

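In 3 of the 51 tested matrix genes 1 of the 4 ergothioneine libraries stood apart from the other 3 by Dixon's criterion on log2 CPM at the 95% level, which chance gives in about 1 of 20 groups. Each time this was ergothioneine library 3. Col4a4 was lowest there at 375 CPM (the others 418 to 422), Col6a1 was lowest at 13.5 CPM (the others 16.0 to 16.5), and Fbln2 was highest at 4.44 CPM (the others 3.6 to 3.69). Without this library Col4a4 remained higher (log2 fold change 0.33), and Col6a1 and Fbln2 did not pass.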

How the results depend on the processing

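Of 11 called matrix genes, Col27a1 kept its call in 19 of 19 alternatives, Col19a1 in 18, Col4a3 in 17, Col4a2, Col4a4 and Eln in 15, Acta2 and Col18a1 in 12, Thbs1 in 11, Col4a1 in 10 and Fbn1 in 7. Signs reversed on TPM with pseudocounts of 1 and 0.1: Col4a1 to -0.20 and -0.21, Col4a2 to -0.092 and -0.095, Col4a4 to -0.087 and -0.089, Col18a1 to -0.083 and -0.085, Nid2 to -0.021 and -0.018, where the median gene stood at -0.31 and -0.37. Over all genes, leaving out 1 library gave 350 to 514 higher and 337 to 589 lower, leaving out untreated 1 and 2 gave 249 and 307, and rescaled TPM gave 125 and 141. Log2(TPM + 1) gave 19 higher and 517 lower, and log2(TPM + 0.1) 18 and 440. Of the matrix genes, 4 to 8 were higher and 2 to 4 lower without 1 library, 2 higher without untreated 1 and 2, 0 higher on both unscaled TPM fits, and 1 higher and 1 lower on rescaled TPM. Of the related genes, 5 to 6 were higher and 2 to 7 lower without 1 library, 1 lower without untreated 1 and 2, 0 higher on both unscaled TPM fits, 7 lower on log2(TPM + 1), and 3 higher and 0 lower on rescaled TPM. The cause of these differences between fits was not tested.

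Same-numbered mice did not deviate together (correlations 0.01, -0.07 and 0.01). With so few mice this cannot exclude a pairing, and the labels do not state one. With the replicate number as a block 394 genes were higher and 412 lower, 5 matrix genes higher and 2 lower, and 6 related genes higher and 2 lower. Counts from 14843899 to 19791575 a library limit genes such as Col6a4, whose SE was 0.50.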
